A study of Mus musculus with 6 samples.

Results

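The genes described here build the transport machinery of the primary cilium and the centrosome from which the cilium grows. They were taken by name: every probe set of the array whose annotated gene symbol starts with Ift, Bbs, Tctn or Cep followed by a number, with the interferon genes Ifit and Ifitm left out. This gave 119 of 45101 probe sets, which stand for 62 genes: 14 Ift, 8 Bbs, 3 Tctn and 37 Cep genes. The rule reads the symbol and no measured value, but the set was proposed with earlier results of these data known. Of the 62 genes, 60 had a probe set above the limit on dim signals (a mean log2 signal of 3.75, or a signal of 13.5) and were tested. Cep250, which codes for a linker protein between centrioles, and Cep295nl lay under it, with signals of 1.32 to 13.99 and of 2.75 to 13.3 over the 6 arrays. Of the 119 probe sets, 101 passed the limit and 18 did not. One of the 62, Cep83os, is a non-coding RNA from the strand opposite Cep83 and met the rule through its symbol alone.

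The study measured mouse embryonic stem cells on their way to presomitic mesoderm, the embryonic tissue from which the somites form. The cells were of 1 line, called Msgn1RepV, of the E14 parental line and 129P2/OlaHsd background, and carried a Venus reporter of Msgn1, a gene of the presomitic mesoderm. They were differentiated on gelatin in serum-containing medium with 0.5% DMSO, R-spondin3 at 10 ng/mL and Noggin at 200 ng/mL. R-spondin3 strengthens Wnt signalling and Noggin blocks BMP ligands. Venus-positive cells were sorted at day 3 (3 arrays) and at day 4 (3 arrays), so both groups share the line, the reporter, every agent and the sort, and differ by the day. There was no untreated or unsorted group among the arrays analysed. The labels call the 3 samples of a day biological replicates without naming separate cultures, so the p-values measure the spread between these samples, which may be technical.

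A primary cilium is a single antenna-like projection that most mammalian cells build on the older of their centrioles when they are not dividing. Intraflagellar transport carries cargo along it: IFT-B is needed mainly for the trip to the tip with kinesin-2, and IFT-A mainly for the return with dynein-2. The BBSome, a coat-like complex, moves membrane proteins out of the cilium, and tectonic proteins sit in the transition zone, the gate at its base. Cep proteins belong mostly to the centrioles, their appendages and the satellites around them. In the embryo, cilia carry Hedgehog signalling, and motile cilia of the node set the left-right axis.

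All 6 arrays had trimmed mean signals between 160.4 and 162.1, and their log2 signals correlated at 0.933 to 0.948 within a day and at 0.924 to 0.939 between days. Replicate 1 of day 4 stood apart in RNA quality: the control probe sets for Gapdh were 14.04 times brighter at the 3′ end than at the 5′ end, against 2.43 to 3.19 times on the other arrays, and those for beta-actin 6.72 times, against 2.77 to 3.84. Results are therefore also given without that array. Among the markers of the presomitic mesoderm, Msgn1, the gene of the reporter, had a mean signal of 74.6 ± 15.0 (SD, n = 3) at day 3 and 33.2 ± 7.06 (n = 3) at day 4. Its change of -1.17 ± 0.24 on the log2 scale (SE) passed the limma test (adjusted p = 0.00723). Rspo3 rose (adjusted p = 5.09e-05), and the other 5 markers of that tissue did not pass the test. Of the 7 changes, 5 were above 0 and 2 below. The summed signal of the 7 markers was 2929 to 3135 at day 3 and 4555 to 4839 at day 4.

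More of these genes were higher at day 4 than lower. Of the 60 tested genes, 17 rose (28.3%), beside 11.5% of all 12285 genes tested. One fell, Cep63, beside 10.7% of all genes tested, and 42 did not pass the test. Counts are from limma on log2 signals with Benjamini-Hochberg adjustment over all genes tested, at an adjusted p under 0.05. The changes ran from -0.59 for Cep63 to 1.34 for Tctn1 on the log2 scale (day 4 minus day 3), and 17 of the 18 changes that passed were smaller than 1, that is, less than 2-fold. The median change of the 60 genes was 0.21, against -0.01 over all genes tested, and 42 of the 60 changes were above 0, against 48.7% over all genes. In 28 of the 60 genes every day 4 array lay above every day 3 array, beside 20.7% of all genes tested, and in 6 every day 4 array lay below, beside 20.6%. In samples of sorted cells such as these, fewer cells of a type and less RNA per cell cannot be told apart.

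**Figure D1:**
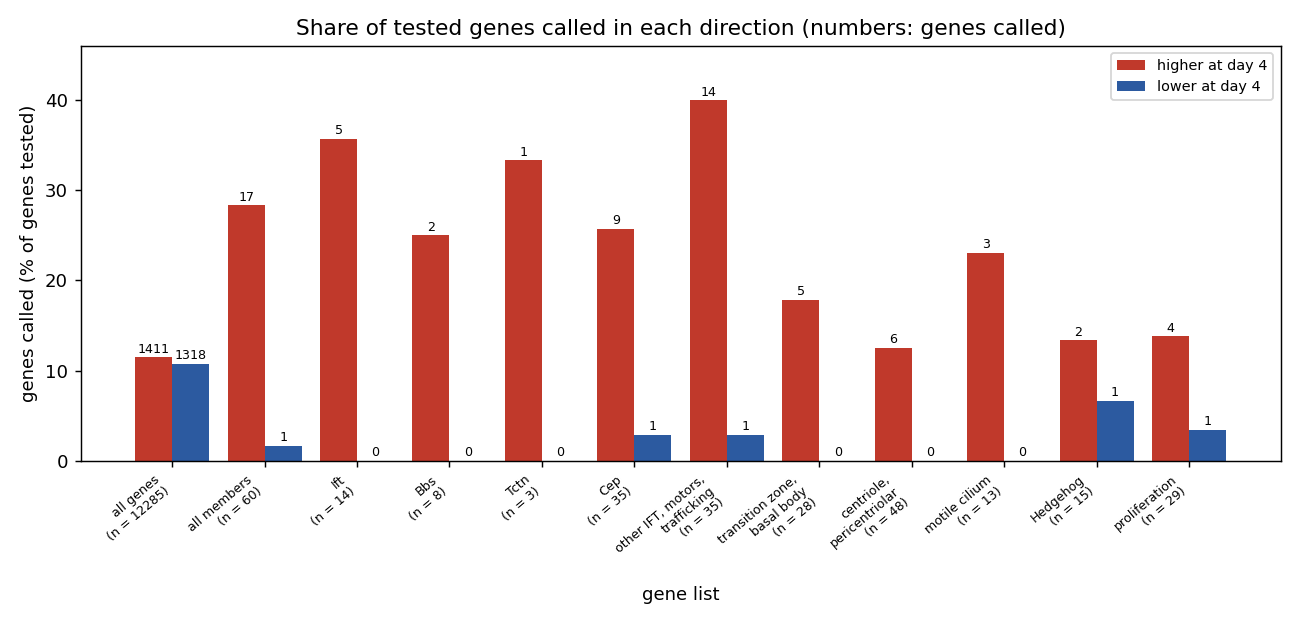
Percent of tested genes that passed the test at day 4 (vertical axis, from 0), higher in red and lower in blue, for all genes, the Ift, Bbs, Tctn and Cep genes together (all members), each family and 6 related gene lists, with the number of genes above each bar. The 60 genes had 28.3% higher, against 11.5% of all 12285 genes.

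The counts depended on single arrays, for all genes as well as for these. Without replicate 1 of day 4, 17 of the 60 genes rose, beside 14.2% of all genes, and 5 fell, beside 14.5%; the median change was again 0.21. Of the 18 genes called with all arrays, 16 were also called without it. With one of the other arrays dropped, fewer genes passed. Dropping replicate 1 of day 3 left 10 genes that rose (8.77% of all genes) and 1 that fell (7.34%). Dropping replicate 2 left 10 (7.84%) and 1 (6.88%). Dropping replicate 3 left 7 (7.05%) that rose and 0 that fell (5.83%; limma, 2 lower at an unadjusted p under 0.05). Of day 4, dropping replicate 2 left 13 (8.72%) and 1 (7.77%), and dropping replicate 3 left 11 (8.91%) and 2 (8.99%). The median change stayed between 0.20 and 0.24 in these fits. Of the 18 genes, 7 passed whichever array was dropped: Ift52, Ift57, Ift81, Ift140, Cep44, Cep55 and Cep95.

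**Figure D2:**
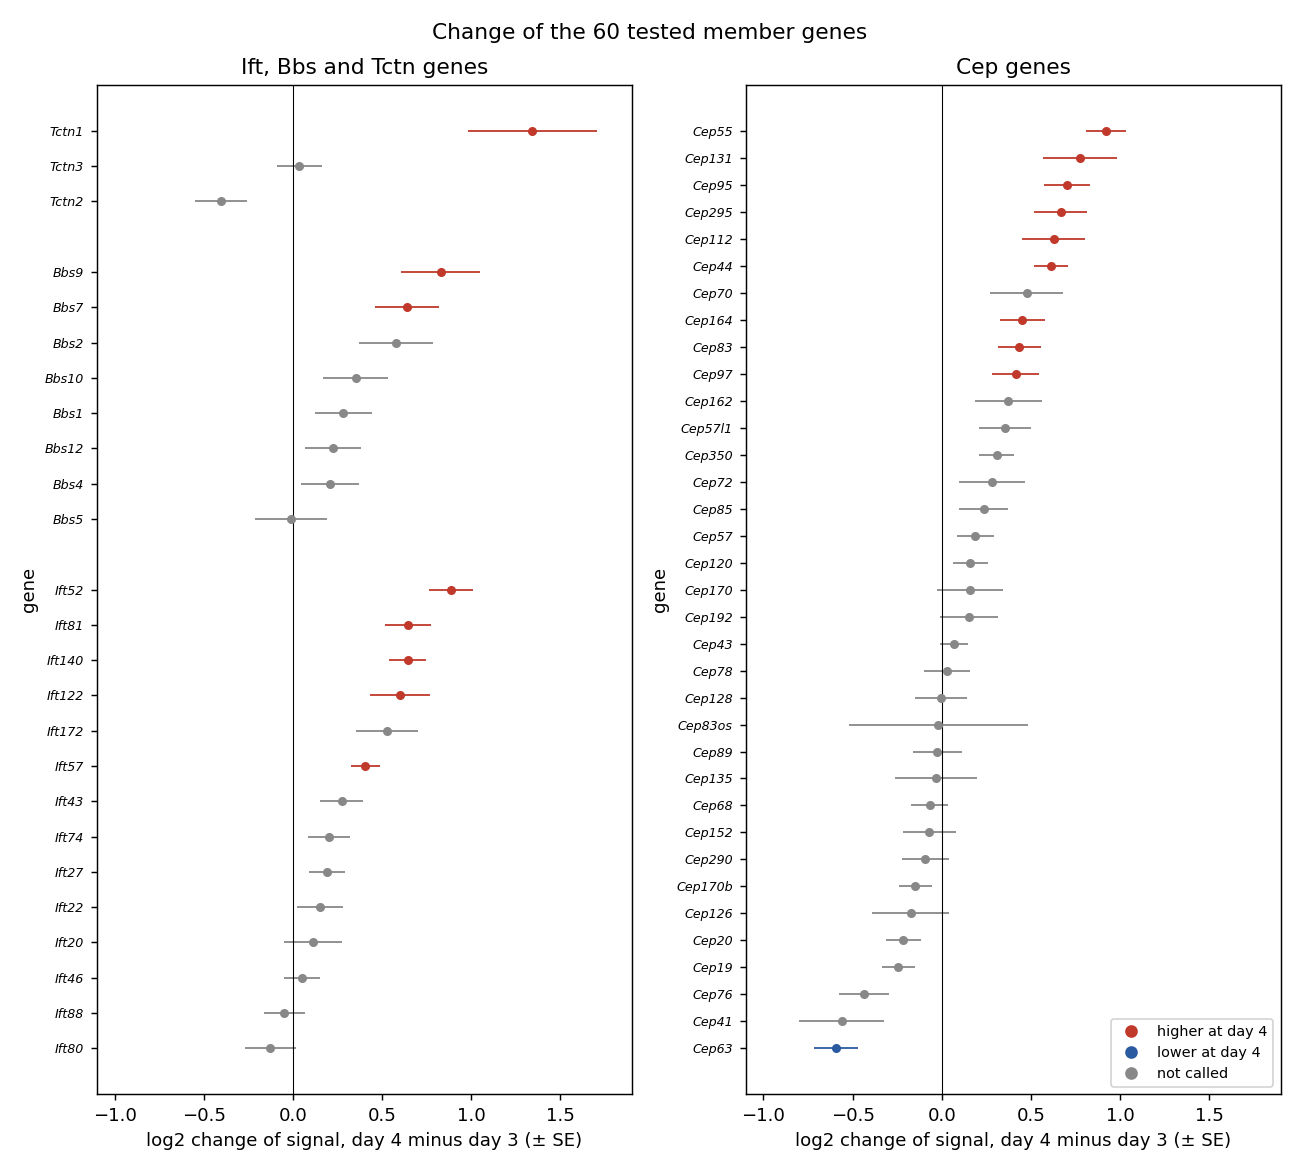
Change of each of the 60 tested genes (horizontal axis, log2 signal, day 4 minus day 3; bars are ± SE), Ift, Bbs and Tctn genes on the left and Cep genes on the right, in red or blue where the gene passed the test as higher or lower. Most points lie right of 0, and Cep63 is the only gene that passed on the left.

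A letter pattern that the choice of members did not use stood in some of their promoters. The X-box is the motif bound by RFX factors, which are known regulators of ciliary genes. It was searched as the letters GTNNCC followed directly by NNGG and NAAC (N stands for any base), on both strands, from 250 bases before to 50 after the annotated gene start, in RefSeq promoters of GRCm38.p6. Of the 62 genes, 54 had a promoter there, and 12 of the 54 held the pattern (22.2%), against 190 of 9924 tested genes (1.91%) and 403 of 27025 genes with a promoter (1.49%). They were Bbs1, Bbs4, Bbs7, Cep19, Cep44, Cep83, Cep83os, Cep112, Ift22, Ift57, Tctn1 and Tctn2, where Cep83 and Cep83os share a site. Among the genes that rose, 6 of 15 held it (40%), and among those that did not pass, 6 of 37 (16.2%). Of the 6 that held it and rose, Ift57 and Cep44 passed whichever array was dropped. Tctn1, Bbs7, Cep83 and Cep112 did not. Ift57, Cep83 and Cep112 turned sign with averaged probe sets. Ift52, Ift140 and Cep55, the genes whose call held under every alternative tried, did not hold the pattern. Whether the pattern goes with the change was not tested. The 6 that rose are shown because they carry both observations, the pattern and the change. Each is written 5′ to 3′ on the gene's strand, with the match in capitals; in Ift57 and Cep83 the match reads on the opposite strand.
Tctn1, chr5:122264411-122264424, minus strand: GTTGCCCGGGCAAC
Bbs7, chr3:36613474-36613533, minus strand: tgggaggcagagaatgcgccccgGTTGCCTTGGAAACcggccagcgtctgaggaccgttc
Ift57, chr16:49699184-49699243, plus strand: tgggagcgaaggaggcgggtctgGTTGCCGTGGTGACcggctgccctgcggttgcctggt
Cep44, chr8:56550646-56550705, minus strand: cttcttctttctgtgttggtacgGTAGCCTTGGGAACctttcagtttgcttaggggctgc
Cep83, chr10:94688730-94688789, plus strand: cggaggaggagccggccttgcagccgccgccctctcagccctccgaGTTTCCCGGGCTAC
Cep112, chr11:108425159-108425218, plus strand: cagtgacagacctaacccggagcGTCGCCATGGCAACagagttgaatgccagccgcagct

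The Tctn1 match starts 37 bases after the annotated start, within the transcribed region, and is shown without its surroundings. The other 5 lie upstream, at -121 (Bbs7), -87 (Ift57), -116 (Cep44), -14 (Cep83) and -84 (Cep112) relative to the start. Of the related gene lists counted further on, the one of other IFT subunits, ciliary motors and trafficking factors had the pattern in 2 of 35 promoters (5.71%), and the one of transition zone and basal body genes in 7 of 26 (26.9%). By family, the pattern stood in 2 of 11 Ift, 3 of 8 Bbs, 2 of 3 Tctn and 5 of 32 Cep promoters. A narrower spelling with GTTNCC in place of GTNNCC, a subset of the first, was found in 3 of 54 (5.56%), against 0.665% of tested genes. The shorter GTTGCC, which overlaps both, was found in 19 of 54 (35.2%), against 14.7%. The cell-cycle element TTTGAA was found in 9 of 54 (16.7%), against 13.9%, and all 9 were Cep genes. These are matches of letters and say nothing of whether a factor binds there.

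Among the 14 Ift genes, 5 rose, beside 11.5% of all genes tested, and none fell at an adjusted p under 0.05, beside 10.7% (limma; 6 higher and 0 lower at an unadjusted p under 0.05). The median change was 0.24, 12 of 14 changes were above 0, and in 9 genes the day 4 arrays all lay above the day 3 arrays, beside 20.7% of all genes. The count that rose was 4 or 5 in each fit without an array, beside 7.05% to 14.2% of all genes.

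Of the 3 IFT-A genes, 2 rose, beside 11.5% of all genes tested. Ift140, a core subunit of IFT-A, had signals of 238, 230.1 and 251 at day 3 and of 404, 375 and 348 at day 4 (replicates 1 to 3). Its mean rose from 239.8 ± 10.6 to 375 ± 28.1 (SD, n = 3 each), a change of 0.65 ± 0.10 (SE; adjusted p = 0.00243). The 3 day 4 arrays lay well clear of the day 3 arrays, and the call held under every alternative tried. Ift122, which sits beside it in the core, had signals of 173, 178 and 210.3 at day 3 and of 369, 252 and 243 at day 4, a change of 0.60 ± 0.17 (adjusted p = 0.0298). Its groups did not overlap, and replicate 1 of day 4 was the highest array. Without probe sets of shared sequence (suffixes x, s and a) it was at 0.14 (adjusted p = 0.777), averaged over its probe sets at 0.37 (0.147), and without the trend in eBayes its adjusted p was 0.077. Without replicate 1 of day 4 the change was 0.41 (adjusted p = 0.0237), and without replicate 1, 2 or 3 of day 3 the adjusted p was 0.105, 0.0997 or 0.0518. Ift43, the third subunit on this list, did not pass (404 ± 43.3 at day 3 and 489.6 ± 62.8 at day 4; change 0.27 ± 0.12, adjusted p = 0.142).

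Of the 11 IFT-B genes, 3 rose (27.3%, beside 11.5% of all genes). In 7 the groups did not overlap with day 4 above, beside 20.7% of all genes. Ift52, a scaffold of the IFT-B core, had signals of 169, 148 and 140.2 at day 3 and of 287, 254 and 304 at day 4. It rose by 0.89 ± 0.12, or 1.85-fold (adjusted p = 0.00112), with the lowest day 4 array far above the highest day 3 array, and passed under every alternative. Ift81, which binds tubulin together with Ift74, had signals of 353, 448 and 417 at day 3 and of 542, 674 and 694 at day 4. Its change was 0.65 ± 0.13 (adjusted p = 0.00681), and both groups varied while remaining apart. Without probe sets of shared sequence it was at 0.36 (adjusted p = 0.206), and averaged over its probe sets at 0.27 (0.209). Ift57, of the peripheral part of IFT-B, had signals of 558, 599 and 582 at day 3 and of 751, 801 and 754 at day 4, a change of 0.41 ± 0.08 (adjusted p = 0.00754). Its arrays were the most alike within a day of these 3, but a second probe set, under the limit on dim signals, turned the mean of its probe sets to -0.39.

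The other IFT-B genes did not pass the test. Ift46, of the core, was at 747 ± 91.5 and 769 ± 19.0 (change 0.05 ± 0.10, adjusted p = 0.765), and its change was -0.014 without replicate 3 of day 3. Ift74, the partner of Ift81, was at 378 ± 18.6 and 438 ± 64.0 (change 0.20 ± 0.12, adjusted p = 0.254), with the day 4 arrays just above those of day 3. Ift172, of the peripheral part of IFT-B, lay near the threshold (change 0.53 ± 0.17, adjusted p = 0.0581), with separate groups. Ift88, whose loss removes cilia, had a change of -0.05 ± 0.11, and Ift80 one of -0.13 ± 0.14. The remaining 3 genes, Ift20, Ift22 and Ift27, had changes of 0.11 to 0.19.

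Of the 8 Bbs genes, 2 rose, beside 11.5% of all genes, and none fell, beside 10.7% (limma; 3 higher and 0 lower at an unadjusted p under 0.05), with a median change of 0.32 and 7 changes above 0. Both were among the 6 BBSome subunits. Bbs7 had signals of 58.2, 74.5 and 63.3 at day 3 and of 81.9, 104 and 121 at day 4, a change of 0.64 ± 0.18 (adjusted p = 0.0317). Bbs9 had signals of 39.1, 30.0 and 37.5 at day 3 and of 48.3, 68.0 and 75.3 at day 4, a change of 0.83 ± 0.22 (adjusted p = 0.0251). In both genes the groups did not overlap, and replicate 1 of day 4 was the lowest day 4 array. Both calls were lost when replicate 3 of day 3, or replicate 2 or 3 of day 4, was dropped (adjusted p of 0.0866 to 0.106 for Bbs7 and 0.0623 to 0.0889 for Bbs9). Bbs7 was also lost without replicate 1 of day 3 (0.105) and Bbs9 without replicate 2 of day 3 (0.0885). Without the limit on dim signals, Bbs7 (0.0617) and Bbs9 (0.0575) did not pass. Averaged over its probe sets, Bbs7 was at 0.82 and did not pass (adjusted p = 0.186), nor did it without the trend in eBayes.

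Bbs2, which binds Bbs7 and Bbs9 in the complex, lay near the threshold (43.0 ± 9.98 at day 3 and 63.1 ± 2.72 at day 4; change 0.58 ± 0.21, adjusted p = 0.0759), with separate groups. Bbs4 was at 113 ± 11.7 and 131 ± 23.8 (change 0.21 ± 0.16, adjusted p = 0.389) and Bbs5 at 87.0 ± 16.5 and 86.4 ± 17.9 (change -0.01 ± 0.20, adjusted p = 0.976). Bbs1, which contacts the small GTPase that places the complex on membranes, had a change of 0.28 ± 0.16. The chaperonin-like genes, which help to assemble the BBSome, did not pass: Bbs12 was at 124 ± 16.0 and 146 ± 23.2 (change 0.23 ± 0.16, adjusted p = 0.334), and Bbs10 had a change of 0.35 ± 0.18 with separate groups (limma; none of either gene at an unadjusted p under 0.05).

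The 3 tectonic genes did not move together. Tctn1, which regulates Hedgehog signalling from the transition zone, had signals of 29.2, 12.9 and 16.7 at day 3 and of 68.7, 40.2 and 37.4 at day 4. Its mean rose from 19.6 ± 8.53 to 48.8 ± 17.3, or 2.54-fold (change 1.34 ± 0.36, adjusted p = 0.0255), the only change above 1 among the 18. These signals are low, and the call was lost without replicate 2 of day 3 (0.0865), replicate 3 of day 3 (0.083) or replicate 1 of day 4 (change 1.07, adjusted p = 0.0568). Tctn2, a partner of Tctn1 in the gate, was at 140 ± 11.9 and 107 ± 14.4 (change -0.40 ± 0.14, adjusted p = 0.0756). All its day 4 arrays lay below those of day 3. Tctn3 was at 107 ± 4.49 and 109.5 ± 7.92 (change 0.04 ± 0.13, adjusted p = 0.871), a sign that turned without replicate 1 of day 4 (-0.0023).

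Of the 35 Cep genes tested, 9 rose, beside 11.5% of all genes, 1 fell, beside 10.7%, and 25 did not pass, with a median change of 0.16. In 14 the day 4 arrays lay above those of day 3, beside 20.7% of all genes, and in 5 below, beside 20.6%. When replicate 1, 2 or 3 of day 3 was dropped, 4, 5 or 3 rose, beside 8.77%, 7.84% or 7.05% of all genes. The 3 of 35 are 8.57%, near the share of all genes in that fit. When the dropped array was replicate 1, 2 or 3 of day 4, 10, 7 or 5 rose, beside 14.2%, 8.72% or 8.91%. In the fits that dropped replicate 1 or 3 of day 4, 5 or 2 fell, beside 14.5% or 8.99% of all genes. The 5 of 35 lie near the share of all genes in that fit.

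Cep55, which recruits the machinery that cuts daughter cells apart at the end of division, gave the smallest p of the 60 genes. The arrays of day 3 gave 323, 284 and 250.4, and those of day 4 gave 521, 546 and 548. The mean rose 1.89-fold, from 286 ± 36.6 to 538 ± 14.9 (change 0.92 ± 0.11, adjusted p = 0.00059), with the groups far apart, and the call held under every alternative tried.

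Several Cep genes act in the assembly of centrioles. Cep44, needed for a new centriole to become a centrosome, had signals of 292, 291 and 274 at day 3 and of 445, 450.4 and 413 at day 4. It rose by 0.61 ± 0.09 (adjusted p = 0.00199), with little spread within a day. Averaging its probe sets, the others of which had signals of 1.32 to 54.7, gave 0.50 (adjusted p = 0.59). Cep295, which acts in the same step, had signals of 96.5, 117 and 83.4 at day 3 and of 145, 159 and 164 at day 4, a change of 0.67 ± 0.15 (adjusted p = 0.0118). Its second probe set rose as well when each probe set was tested on its own (0.90 ± 0.22, adjusted p = 0.0208), and the call was lost without replicate 3 of day 3 (0.0533). Cep97, which with Cp110 caps the end of the centriole and holds back cilium growth, had signals of 138, 133 and 138 at day 3 and of 155, 201 and 193 at day 4. Its change of 0.41 ± 0.13 (adjusted p = 0.0489) lay at the threshold, its groups did not overlap, and it did not pass in 5 of the 6 fits without an array (all but the one without replicate 1 of day 4; adjusted p of 0.103 to 0.158).

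Cep63, which with Cep152 forms the ring around the centriole where duplication starts, had signals of 238, 241 and 268 at day 3 and of 175, 143 and 179.6 at day 4. It fell by 0.59 ± 0.13 on the log2 scale (adjusted p = 0.00898), and day 3 was 1.51-fold above day 4 with no overlap. Without replicate 3 of day 3 its adjusted p was 0.0507, and averaged over its probe sets it was at -0.38 (adjusted p = 0.155). Its partner Cep152 had a change of -0.07 ± 0.15, and Cep192, a scaffold that brings in the duplication kinase, one of 0.15 ± 0.16. Cep76, which limits re-duplication, lay next to the threshold below 0 (118 ± 2.93 and 87.7 ± 11.2, change -0.44 ± 0.14, adjusted p = 0.0509). It passed in 2 of the 6 fits without an array, among them the one without replicate 1 of day 4 (-0.44, adjusted p = 0.0468). Cep135, of the cartwheel, had a change of -0.03 ± 0.23 and Cep120, which helps centrioles elongate, one of 0.16 ± 0.10.

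Cep164, Cep83 and Cep89 are genes of the distal appendages, which dock the mother centriole to the membrane before a cilium grows. Cep164 had signals of 134, 128 and 127 at day 3 and of 193, 155 and 185 at day 4, a change of 0.45 ± 0.13 (adjusted p = 0.0287). Cep83, which anchors the other appendage proteins, had signals of 397, 548 and 459.6 at day 3 and of 619.8, 614 and 649 at day 4, a change of 0.44 ± 0.12 (adjusted p = 0.0288). In both genes the groups did not overlap, and day 3 of Cep83 varied most. Each call was lost in 4 of the 6 fits without an array: Cep164 when any array of day 3, or replicate 3 of day 4, was dropped (0.0611 to 0.0997), and Cep83 when this was replicate 1 or 3 of day 3 or replicate 2 or 3 of day 4 (0.0659 to 0.098). The other 2 probe sets of Cep83 pointed the other way without passing (-0.03 and -0.65). With its probe sets averaged, Cep164 was at 0.69 (adjusted p = 0.0667). Cep89 had a change of -0.02 ± 0.14, and Cep83os, the RNA opposite Cep83, one of -0.02 ± 0.50 at signals of 9.62 to 29.4. Sclt1 and Fbf1, appendage genes under other names, did not pass (0.07 ± 0.12, adjusted p = 0.716, and 0.40 ± 0.17, adjusted p = 0.129); they are named after their values were seen. Array probes read one strand, and strand use of these probe sets was not examined.

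Cep131, of the centriolar satellites, had signals of 81.1, 91.4 and 90.6 at day 3 and of 213, 133 and 119 at day 4. It rose by 0.77 ± 0.21 (adjusted p = 0.0247); replicate 1 of day 4 was far above the other arrays of that day, which were still above day 3. Without that array the change was 0.52 (adjusted p = 0.0177), and without replicate 1, 2 or 3 of day 3 the adjusted p was 0.0895, 0.0649 or 0.0706. Cep290, found in the satellites and the transition zone, had a change of -0.09 ± 0.13.

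Cep95 and Cep112 rose as well; no role is given for them here. Cep95 had signals of 201, 171 and 179.7 at day 3 and of 342, 264 and 295 at day 4, a change of 0.70 ± 0.13 (adjusted p = 0.00436), with separate groups, and one of 0.41 with averaged probe sets (adjusted p = 0.235). Cep112 had signals of 71.8, 72.4 and 53.2 at day 3 and of 115, 88.4 and 100.3 at day 4, a change of 0.63 ± 0.18 (adjusted p = 0.0300). The groups of Cep112 did not overlap, but the call held in only 1 of the 6 fits without an array, the one without replicate 2 of day 4 (0.0524 to 0.112 in the others). The mean of its probe sets was -0.69, but its other probe sets lay under the limit on dim signals, at signals of 0.51 to 24.1.

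**Figure D3:**
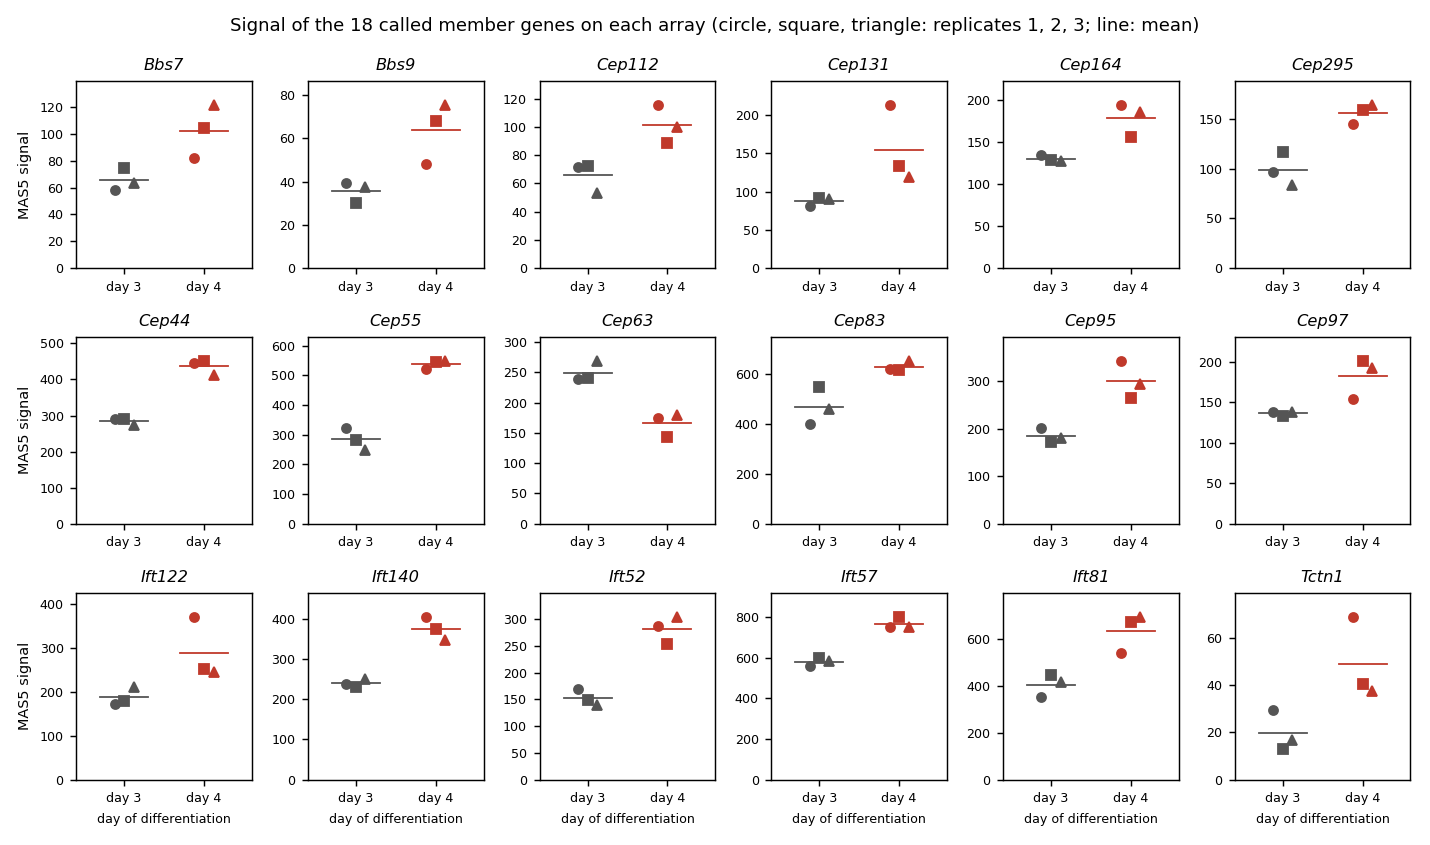
MAS5 signal on each of the 6 arrays (vertical axis, linear, from 0, with its own scale in each panel) for the 18 genes that passed the test, day 3 in grey and day 4 in red; circle, square and triangle are replicates 1, 2 and 3 and the line is the mean. In all 18 genes the 3 arrays of one day lie wholly on one side of the other 3, and Cep63 is the only gene with day 4 below.

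The brightest Cep genes that did not pass were Cep19, Cep43 and Cep20, all of the ciliary base. Cep19, which helps to bring IFT-B into the cilium, was at 826 ± 61.3 and 698 ± 39.0 (change -0.24 ± 0.09, adjusted p = 0.0855), with day 4 wholly below day 3. It passed without replicate 1 of day 4 (-0.29, adjusted p = 0.0230). Cep43, which holds Cep19 at the centriole, was at 681 ± 2.93 and 715 ± 2.38 (change 0.07 ± 0.08, adjusted p = 0.556). Cep20, a relative of Cep43, was at 694 ± 59.7 and 597 ± 34.1 (change -0.21 ± 0.10, adjusted p = 0.143), and passed without replicate 1 of day 4 (-0.26, adjusted p = 0.0492). Cep350, which binds Cep43, lay close to the threshold above 0 (433 ± 28.1 and 536 ± 40.4; change 0.31 ± 0.10, adjusted p = 0.0536). Without replicate 1 of day 4 it passed (0.36, adjusted p = 0.0130), as did Cep57l1 (0.47, adjusted p = 0.0205) and Cep41 (-0.73, adjusted p = 0.0364).

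Values of a gene came from its brightest probe set, and other probe sets agreed only in part. Of the 41 other probe sets above the limit, 25 pointed the same way as the gene's brightest one, and 1, of Cep295, passed on its own. Among genes that passed, 9 had another probe set above the limit, 13 in all, of which 10 pointed the same way and 3 did not (2 of Cep83 and 1 of Cep97). Tested one probe set at a time, 17 of the 101 probe sets of these genes rose, beside 9.67% of all 22276 probe sets tested. Of the 101, 1 fell, beside 8.53%. Where all probe sets of a gene were averaged instead, also those under the limit, 7 of the genes rose. Ift81, Cep44, Cep95 and Cep63 were among those that no longer passed. With all tested genes split into 4 equal classes from dim to bright, 28 of the 60 genes lay in class 2, where 12.7% of all genes rose and 6 of the 28 did. In class 3, 15.8% of all genes rose and 7 of 21 of these did, and in class 4, 13.6% and 3 of 9.

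**Figure D4:**
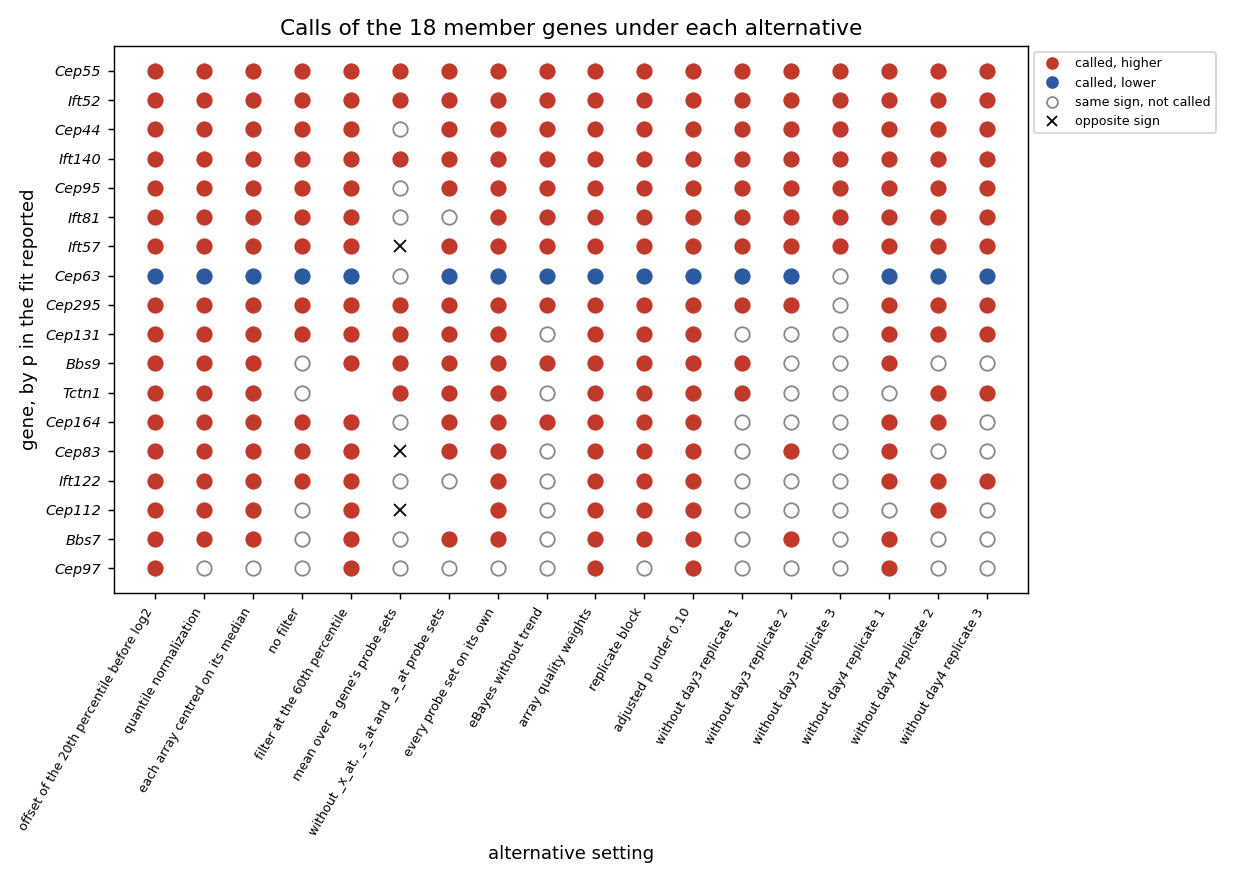
The 18 genes that passed (rows, by p) under each of 18 alternatives (columns): filled circles passed, higher in red and lower in blue, open circles kept the sign without passing, crosses turned sign, and a blank means that the gene had no tested probe set under that alternative. Cep55, Ift52 and Ift140 are filled throughout, and the crosses, for Ift57, Cep83 and Cep112, all stand under the mean over probe sets.

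Genes that work with these proteins under other names were counted in the same fit. Of 35 tested genes for the remaining IFT subunits, ciliary motors and trafficking factors, 14 rose (40%, beside 11.5% of all genes). The median change was 0.24, and 1 gene fell, beside 10.7% of all genes. Bbip1, a small BBSome subunit, went from 1567 ± 143 to 3044 ± 204 (change 0.96 ± 0.09, adjusted p = 0.00012). Hspb11, an IFT-B subunit also called Ift25, went from 338 ± 18.5 to 706 ± 36.7 (change 1.06 ± 0.09, adjusted p = 0.000105). Averaged over their probe sets, Bbip1 was at 0.39 and passed, and Hspb11 was at 0.65 and did not (adjusted p = 0.414). Arl3, a GTPase that releases lipid-anchored cargo in the cilium, went from 1194 ± 5.70 to 1982 ± 118 (change 0.73 ± 0.07, adjusted p = 0.000192).

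Among the motors, Kif3a, of kinesin-2, rose from 343 ± 11.5 to 609 ± 87.9 (change 0.82 ± 0.12, adjusted p = 0.00136), and by 0.51 with averaged probe sets. Dync2h1, the heavy chain of dynein-2, did not pass (114 at day 3 and 123 at day 4; change 0.10 ± 0.16, adjusted p = 0.678). Rab23, a GTPase that restrains Hedgehog signalling, was the gene of this list that fell (254 ± 5.01 to 181 ± 15.7; change -0.49 ± 0.11, adjusted p = 0.0122); it is named because it was the only one, after its value was seen. Its call was lost without replicate 3 of day 3 (0.0529). The number that rose was 15 without replicate 1 of day 4 (42.9%, beside 14.2% of all genes). It was 9 without replicate 2 of day 3 (25.7%, beside 7.84%).

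Of 28 tested genes of the transition zone and basal body, 5 rose (17.9%, beside 11.5% of all genes). None fell, beside 10.7% of all genes (limma, 8 higher and 1 lower at an unadjusted p under 0.05). The median change was 0.10. Ahi1 (0.83 ± 0.16, adjusted p = 0.00581) and Iqcb1 (0.58 ± 0.11, adjusted p = 0.00607), both genes of ciliary disease, rose. Averaged over its probe sets, Ahi1 was at 0.26 (adjusted p = 0.804), while Iqcb1 passed under every alternative. Nek8, a ciliary kinase, followed (0.83 ± 0.20, adjusted p = 0.0167), lost without replicate 3 of day 3 (0.0659) or replicate 3 of day 4 (0.0636) and with averaged probe sets (1.32, adjusted p = 0.114). Sdccag8 (0.55 ± 0.17, adjusted p = 0.0452) was lost in all fits without an array except the one without replicate 2 of day 4 (adjusted p of 0.0690 to 0.130). The count that rose was 3 (10.7%) when replicate 1 or 2 of day 3 was dropped, beside 8.77% or 7.84% of all genes. It was 2 (7.14%) when replicate 3 of day 3 or day 4 was dropped, no clear excess over the 7.05% or 8.91% of all genes. It was 4 (14.3%) when replicate 1 or 2 of day 4 was dropped, beside 14.2% or 8.72%. Without replicate 3 of day 4, 1 fell, beside 8.99% of all genes. Pcm1, the scaffold of the satellites, did not pass (0.27 ± 0.13, adjusted p = 0.165).

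Of 48 tested genes of centriole duplication and the pericentriolar material, 6 rose (12.5%), a share near the 11.5% of all genes tested. None fell, beside 10.7% of all genes (limma, 12 higher and 4 lower at an unadjusted p under 0.05). The median change was 0.12. Spice1 (0.83 ± 0.13, adjusted p = 0.00247), Kif24 (0.73 ± 0.16, adjusted p = 0.0108), Ninl (0.77 ± 0.18, adjusted p = 0.0128) and Stil, which starts duplication (0.50 ± 0.11, adjusted p = 0.0128), were among them. Stil was lost without replicate 2 of day 3 (0.0515) or replicate 2 of day 4 (0.0508). Without replicate 1 of day 4 the count was 10 higher (20.8%, beside 14.2% of all genes) and 1 lower (beside 14.5%). Without replicate 3 of that day 1 was lower, beside 8.99% of all genes. With averaged probe sets, Kif24 was at -0.21, and Spice1 at 0.63 did not pass (adjusted p = 0.149). Pcnt, a main scaffold of the pericentriolar material (0.11 ± 0.11, adjusted p = 0.495), and Plk4, the kinase of duplication (0.19 ± 0.09, adjusted p = 0.167), did not pass.

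Genes of motile cilia were mostly dim: 16 of 29 lay under the limit, among them Foxj1, the master factor of motile cilia, with mean signals of 4.56 and 6.33. Of the 13 tested, 3 rose (23.1%, beside 11.5% of all genes). None fell, beside 10.7% of all genes (limma, 4 higher and 4 lower at an unadjusted p under 0.05). Their median change was -0.25. When replicate 1 or 3 of day 4 was dropped, 1 fell, beside 14.5% or 8.99% of all genes. Rfx3, an RFX factor of ciliary genes, rose from 241 ± 25.05 to 391 ± 65.6 (change 0.69 ± 0.14, adjusted p = 0.0077). Spag16, of the axoneme, rose from 17.0 ± 1.39 to 43.2 ± 12.7 (1.31 ± 0.28, adjusted p = 0.00972). Ccdc39, of the same structure, rose (0.95 ± 0.29, adjusted p = 0.0454) but was lost in 5 of the 6 fits without an array, all except the one without replicate 3 of day 3 (0.0553 to 0.121).

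Of 15 tested Hedgehog pathway genes, 2 rose (13.3%), a share near that of all genes tested (11.5%), and 1 fell, beside 10.7% of all genes, with a median change of -0.03. Boc, a co-receptor, rose from 55.8 ± 1.9 to 112 ± 26.8 (0.98 ± 0.18, adjusted p = 0.00521), but averaged over its probe sets it was at 0.32 (adjusted p = 0.728). Gas1, another co-receptor, fell by 0.48 ± 0.10 on the log2 scale (adjusted p = 0.00685). Smo, the transducer that enters the cilium, rose (0.28 ± 0.08, adjusted p = 0.0365), but the call was lost in all fits without an array except the one without replicate 1 of day 4 (0.0689 to 0.0997). Ptch1 and Gli1, targets of the pathway, did not pass (0.25 ± 0.09, adjusted p = 0.068, and -0.21 ± 0.41, adjusted p = 0.752). Without replicate 1 of day 4, 2 genes of this list fell, beside 14.5% of all genes.

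Cells build cilia outside division, so proliferation genes were counted beside them. Of 29, 4 rose (13.8%), near the 11.5% of all genes tested, and 1 fell, beside 10.7% of all genes, with a median change of 0.05, and their summed signal was 56978 to 57518 at day 3 and 56912 to 60203 at day 4. The lowest value of day 4 was that of replicate 1, and without it day 4 (59157 and 60203) lay wholly above day 3. Mki67 (0.35 ± 0.07, adjusted p = 0.00772), Bub1 (0.28 ± 0.07, adjusted p = 0.0157) and Bub1b (0.23 ± 0.07, adjusted p = 0.0398) rose, and Cdc20 fell by 0.21 ± 0.06 (adjusted p = 0.0255). Aurka (-0.29 ± 0.14, adjusted p = 0.176) and Plk1 (-0.13 ± 0.11, adjusted p = 0.411) did not pass. The number that rose was 7 without replicate 1 of day 4 (beside 14.2% of all genes) and 1 or 2 without any other array (beside 7.05% to 8.91%), and of the genes named here Mki67 alone held in each such fit. Bub1 was lost when replicate 2 or 3 of day 3, or replicate 2 of day 4, was dropped (0.0608 to 0.074), and Bub1b and Cdc20 without every array but replicate 1 of day 4 (0.0733 to 0.128 and 0.0675 to 0.0929).

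Markers of other cell types moved between the days as well. Of 5 pluripotency markers, 4 fell (Pou5f1, Nanog, Sox2 and L1td1), and their summed signal went from between 1710.5 and 1919.6 to between 377 and 469. For the node and ciliated cells, 3 of 6 markers were tested and 1 fell, Foxa2; the sum was 160.4 to 189 and 116 to 156, and Foxj1, Tekt1 and Dnah5 lay under the limit. For endoderm, 2 of 5 fell, Sox17 and again Foxa2 (266 to 327, and 186 to 208). Nes fell among 2 tested neural markers of 4 (123 to 152, and 68.9 to 102), with Sox1 and Neurog2 under the limit. Gata4 rose among 4 cardiac markers (150 to 163, and 169.9 to 265). Kdr rose among 3 tested markers of 4 for endothelium and blood, from 216 ± 19.6 to 496 ± 92.7, and the sum went from between 248 and 287 to between 468 and 655. Of those 3 tested markers, 1 had a change below 0 (-0.78) without passing, with every day 4 array below every day 3 array. Most markers of pluripotent cells, and Kdr alone for endothelium and blood, thus moved with the day. Their part in the results of the cilium and centrosome genes was not tested. The calls of Sox2, Sox17, Nes and Gata4 were each lost in at least 1 fit without an array (adjusted p up to 0.129, 0.051, 0.0914 and 0.124).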

How the data were processed

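RNA of sorted cells was amplified in 2 cycles, labelled and hybridised to Affymetrix arrays. Total RNA was taken with Trizol or an RNeasy kit per the labels' protocols, which do not say which sample had which. The deposited values are MAS5 intensities on a linear scale, per the submitters' processing notes; for the scaling target and the version of that software, the entry is: not given in the sources used here. No detection calls were used. Probe sets were named from the platform annotation: 34958 had 1 symbol, 932 had several and 9211 were not listed; 34754 matched RefSeq by gene identifier. The brightest probe set stood for each of 18193 genes, probe sets under the 40th percentile of mean log2 signal were left out, and 12285 genes were fitted in R 4.3.3 with limma 3.58.1 (eBayes with trend, 2-sided, Benjamini-Hochberg over all genes). The fit was tested on simulated data. Named were all genes that passed, the 3 brightest others of each family, fixed genes of the other lists and their 4 smallest p; others were picked after their values were seen. The members and lists were chosen with earlier results of these data known. Alternatives covered scaling, filter, probe sets, variance model, replicate block and each array left out. No 2 arrays held identical values. The number of arrays limits the precision.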

Additional observations from a re-analysis of the deposited data

How the results depend on the processing

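The median change of the Ift, Bbs, Tctn and Cep genes stayed above 0 under the 17 alternatives that can move it (0.172 to 0.237). The count of 17 higher became 7 with the mean over probe sets and 10 with eBayes without trend. It was 12 without the limit on dim signals and 13 without probe sets of shared sequence. It was 20 with array quality weights or an adjusted p under 0.10. When an array was left out it was 7 to 17, beside 7.05% to 14.2% of all genes. The count of 1 lower became 2 after quantile normalization, after centring each array on its median or with a filter at the 60th percentile, and 4 with array quality weights or an adjusted p under 0.10. It was 0 with the mean over probe sets (limma, 5 at an unadjusted p under 0.05). It was 0 to 5 when an array was left out, beside 5.83% to 14.5% of all genes. Over all genes, 2729 passed in either direction. This became 1796 with the mean over probe sets, 2059 with eBayes without trend and 4312 with array weights. It was 2764 after quantile normalization, 2676 after centring and 2693 with the filter at the 60th percentile. At an adjusted p under 0.10, 3788 passed, and 1582 to 3530 did when an array was left out. Apart from left-out arrays, shares of all genes by direction are not given for these settings, so the counts cannot be judged against them. The cause of these differences was not tested.

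Of the 18 genes that passed, Cep55, Ift52 and Ift140 kept the call under every alternative, and 3 turned sign under 1. Tctn1 had no probe set above a filter at the 60th percentile and Cep112 none without probe sets of shared sequence, so these give no value. With the mean over probe sets, Cep112 was -0.69, Cep83 -0.081, Ift57 -0.39, Kif24 -0.21, Ptch1 -0.092 and Aurka 0.52. Smo was -0.065 without probe sets of shared sequence (suffixes x, s and a). Tctn3 was -0.023 after quantile normalization, -0.0087 with array weights and -0.0023 without day 4 replicate 1. Bbs5 was 0.12 with array weights and -0.18 to 0.13 when an array was left out, above 0 in 4 of the 6 fits. In those fits, Ift46 ran from -0.014 to 0.15, below 0 only without day 3 replicate 3. Over the same fits Gli1 ran from -0.43 to 0.065, above 0 only without day 3 replicate 3. There too Dync2h1 ran from -0.0032 to 0.23, below 0 only without day 4 replicate 3.

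Equal replicate numbers of the days showed no clear pairing of the samples. Their deviations correlated at 0.067, 0.011 and -0.00051, and only number 1 matched its own number best. With 3 arrays a day, this cannot tell whether samples of the same number shared a culture. With the replicate block, 17 genes rose, 1 fell and 2884 of all genes passed; Cep97 lost its call.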
